A study of Mus musculus with 68 samples.

Results

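The 10 genes of the NRF2 antioxidant pathway described here were chosen by name: Nfe2l2, Keap1, Sqstm1, Gclc, Gclm, Gsr, Txnrd1, Srxn1, Hmox1 and Nqo1. All 10 were found by their Ensembl gene ID among the 13197 genes of the founder tables and the 12803 genes of the F1 tables. RNA came from mouse embryonic fibroblasts (MEFs) that were given 2 ug/ml of tunicamycin (TM), which blocks N-linked glycosylation and so causes ER stress, or 0.1% DMSO alone as the control, for 4 h. Of the 68 libraries, 40 came from 8 inbred founder strains of the Collaborative Cross: A (A/J), B6 (C57BL/6J), 129 (129S1Sv/ImJ), NOD (NOD/ShiLtJ), NZO (NZO/H1LtJ), CAST (CAST/EiJ), PWK (PWK/PhJ) and WSB (WSB/EiJ). The other 28 came from 5 F1 crosses of a B6 mother with a 129, CAST, NOD, NZO or WSB father, written x129, xCAST, xNOD, xNZO and xWSB. A genotype had 2 or 3 libraries per treatment. By the methods, a library was left out if it did not cluster with its own treatment within its strain in a principal component analysis. Gaps between treatments and spreads below are those of the libraries kept by this rule, and its part in them was not tested. By the study's methods the MEFs of a genotype were mixed from several female embryos of a single litter and wells were treated in parallel, so a difference between genotypes and a difference between lots of cells cannot be told apart, and p-values measure the spread between parallel wells. Levels are given as deposited, in reads per gene per 1000000 of the TMM-scaled library size (RPM below). They are not divided by gene length, so levels were compared between libraries of 1 set and never between genes or between the founder and F1 sets. The libraries whose reads could be recovered held 7091923 to 21530282 reads on genes in the founders and 6442976 to 29528457 in the crosses. The value of a member rested on at least 92 reads (Gsr) and on a median of 336 for Gsr and 10110.5 for Sqstm1.

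NRF2, the transcription factor encoded by Nfe2l2, is made continuously and is kept low by KEAP1, an adaptor that hands it to a CUL3 ubiquitin ligase for degradation. Oxidants and electrophiles modify KEAP1, NRF2 then accumulates, pairs with a small MAF protein and binds antioxidant response elements, where BACH1 otherwise represses. Its targets make and recycle glutathione (Gclc, Gclm, Gsr), keep thioredoxin and peroxiredoxins reduced (Txnrd1, Srxn1), break down heme (Hmox1) and reduce quinones (Nqo1). SQSTM1 (p62), an autophagy receptor and itself an NRF2 target, binds KEAP1 and can take it to autophagosomes. PERK, an ER stress sensor, can phosphorylate NRF2. Most of this control acts on proteins, which RNA levels do not measure.

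The promoter windows of RefSeq (GRCm38.p6, 250 bases before to 50 after a start site) were read for the letters that NRF2 is known to bind. Windows were listed for 7 of the 10 members: Nfe2l2, Keap1, Nqo1, Gclm, Txnrd1, Srxn1 and Sqstm1. The antioxidant response element core, TGACNNNGC on either strand, was in 4 of their 9 windows and in 12.4% of all 32851 windows, or in a window of 4 of the 7 genes beside 13.99% of all genes. The matches are shown 5′ to 3′ on the strand of the match, with the core in capitals and 10 flanking bases in lower case, as the stretches of these windows with the letters that NRF2 is known to bind.
Nfe2l2: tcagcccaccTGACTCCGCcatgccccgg
Gclm: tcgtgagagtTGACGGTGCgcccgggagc
Txnrd1: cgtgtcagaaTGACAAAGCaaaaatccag
Srxn1: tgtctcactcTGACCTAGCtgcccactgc
They lie at chr2:75704885-75704913, chr3:122245413-122245441, chr10:82859104-82859132 and chr2:152105542-152105570, all on the minus strand of the assembly. Counted from the annotated start site to the first base of the match along the gene, the cores begin at -240 in Nfe2l2, -134 in Gclm, -92 at 1 of the starts of Txnrd1 and 28 in Srxn1, where negative positions lie before the start. On either strand, neither TGATGNAA, the C/EBP-ATF element of CHOP and ATF4, nor the ER stress element of ATF6 was in a window of a member, against 3.97% and 0.119% of all windows. A match describes letters and does not show binding.

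TM set off the transcripts of ER stress. The 6 genes used to check this (Hspa5, Ddit3, Herpud1, Atf4, Chac1 and Trib3) all rose, by 1.21 (Atf4) to 4.30 (Herpud1) on the log2 scale over the founders and by 1.17 to 4.16 over the crosses. All 8 fibroblast markers were read in every library. In the founders their summed level was 19913 to 54694 in controls and 16928 to 48536 with TM. Single markers could be low within this sum: Thy1 lay between 1.38 and 654 in founder libraries, and Dcn between 3.38 and 52.6. With TM, 4 of the 8 were lower in the founders (Col3a1, Fn1, Pdgfrb and Thy1) and 3 in the crosses. Of 11 myeloid markers, 10 were listed in the founder tables, with a summed level of 8.53 to 71.2 in controls and 7.53 to 57.8 with TM, and 4 of these 10 were lower with TM (Csf1r, Cd68, Lyz2 and Laptm5). In the crosses 5 were listed, at 6.74 to 25.6 and 4.22 to 13.8, and 2 were lower (Csf1r and Cd14). Ptprc, Itgam, Adgre1, Tyrobp and Ctss were at 0 in some founder libraries. Endothelial markers summed to at most 18.7 and epithelial markers to at most 80.7 in any library, and none of them changed with TM by limma on average. Whether these markers had a part in the results was not tested. In bulk RNA, fewer cells of a type and less RNA per cell cannot be told apart. In A the replicates were spread most (median residual SD over all genes 0.357 on the log2 scale), followed by xWSB (0.317), so average and basal results were also run without each of these genotypes.

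With TM, the members with the 3 largest average changes in each set were Sqstm1, Nfe2l2 and Keap1. These are the genes of p62, which binds KEAP1, of NRF2 and of KEAP1. In the crosses Nqo1 (-0.43 ± 0.079 (SE) on the log2 scale) lay within the SE as far from 0 as Keap1 (-0.44 ± 0.060) and Nfe2l2 (0.44 ± 0.067). Without xWSB TM replicate 1 Nqo1 was at -0.47 and Nfe2l2 at 0.40, so the order there was not settled. Nfe2l2 and Sqstm1 rose and Keap1 fell in both sets, and 3 antioxidant genes, Nqo1, Srxn1 and Gsr, also fell in both. Hmox1 and Txnrd1 rose in the founders and did not pass in the crosses. The average changes of Gclc and Gclm, the subunits of the enzyme that starts glutathione synthesis, passed in neither set. These averages were taken by limma on log2(level + 0.1) over all strains of a set, and a gene was called at a Benjamini-Hochberg adjusted p below 0.01 over all genes. In the founders 4 of 10 members rose and 4 fell, where 20.5% of all genes rose and 21.9% fell. In the crosses 2 of 10 rose and 4 fell, where 16.9% of all genes rose and 18.7% fell. The changes were small: with the 1.5-fold minimum used below within genotypes, Sqstm1 alone passed on average, in both sets. The median change of all genes was -0.037 in the founders and -0.040 in the crosses on the log2 scale, and -0.048 and -0.041 with libraries scaled by the median of ratios.

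**Figure D1:**
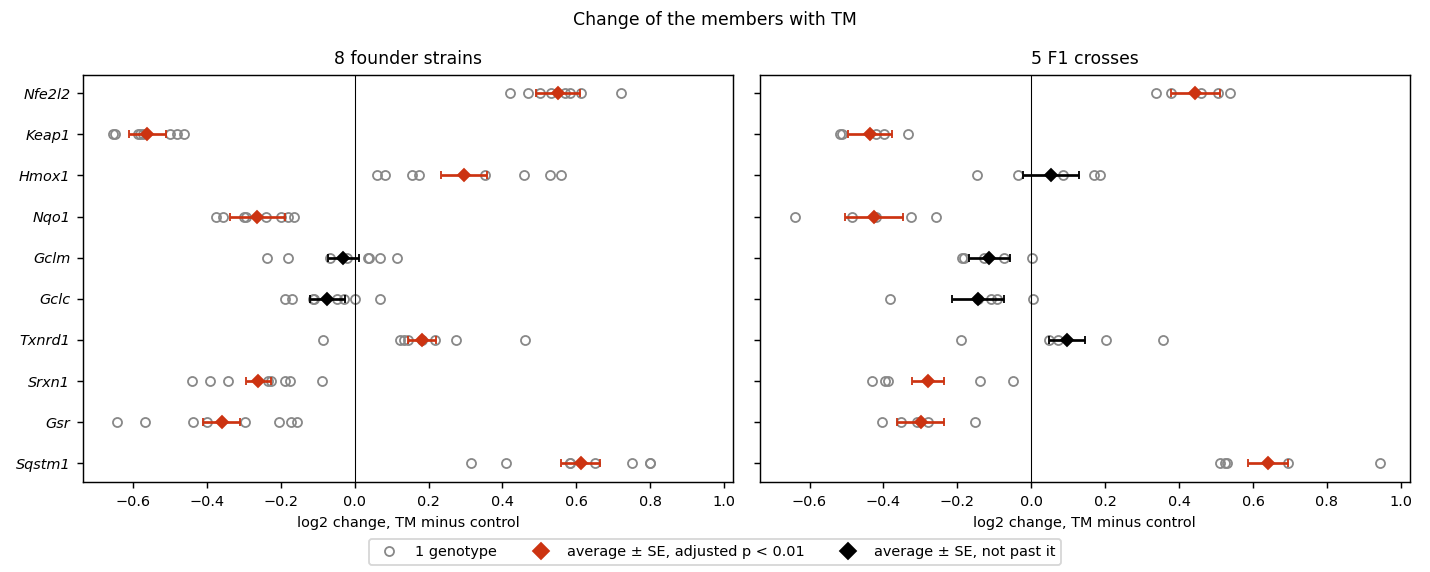
Log2 change of each member with TM on the x axis, in the 8 founder strains (left) and the 5 F1 crosses (right); grey circles are single genotypes, and diamonds are averages over the set with the SE, red where the adjusted p was below 0.01. Nfe2l2 and Sqstm1 lie to the right and Keap1, Nqo1, Srxn1 and Gsr to the left in both sets, while Gclm and Gclc lie near 0.

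Nfe2l2, encoding NRF2 itself, was higher with TM in every strain. Its level in the founder controls was 48.1, 74.2 and 75.7 in A, 99.8 and 94.2 in B6, 76.1 and 73.0 in 129, 74.5 and 68.4 in NOD, 75.3 and 72.9 in NZO, 99.3 and 104 in CAST, 95.7, 108 and 105 in PWK, and 67.8 and 73.1 in WSB. With TM it was 117, 116 and 88.8 in A, 143 and 147 in B6, 95.3, 104 and 101 in 129, 102, 109 and 93.3 in NOD, 120.3, 121 and 84.4 in NZO, 152 and 131 in CAST, 167, 161 and 144 in PWK, and 127, 101 and 88.9 in WSB. In all 8 strains the lowest TM library was above the highest control. The narrowest gap was in NZO, from 75.3 to 84.4. The average log2 change was 0.55 ± 0.059 (SE), a 1.47-fold rise (adjusted p = 4.71e-09), and single strains lay between 0.42 ± 0.13 in 129 and 0.72 ± 0.24 in A. In the cross controls it was 62.4, 66.4 and 66.0 in x129, 79.5 and 81.8 in xCAST, 60.5, 67.2 and 59.4 in xNOD, 61.7, 62.7 and 61.4 in xNZO, and 60.2, 68.8 and 72.1 in xWSB. With TM the crosses were at 99.0, 94.0 and 84.4 in x129, 119, 128 and 106 in xCAST, 86.7 and 71.4 in xNOD, 94.4, 86.9 and 75.6 in xNZO, and 118, 83.9 and 66.3 in xWSB. The groups overlapped in xWSB only of the 5 crosses. The average rise over the crosses was 0.44 ± 0.067 on the log2 scale (adjusted p = 8.96e-06).

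Keap1, encoding the adaptor that targets NRF2 for degradation, was lower with TM in every strain. The founder controls read 55.1, 52.1 and 48.3 in A, 49.1 and 54.1 in B6, 48.5 and 48.7 in 129, 49.2 and 46.9 in NOD, 52.1 and 50.02 in NZO, 50.3 and 43.6 in CAST, 44.8, 38.7 and 37.2 in PWK, and 46.0 and 39.998 in WSB. The TM libraries read 31.5, 35.3 and 36.8 in A, 37.2 and 36.7 in B6, 31.3, 34.8 and 31.9 in 129, 31.2, 33.6 and 40.3 in NOD, 30.5, 30.03 and 37.6 in NZO, 26.5 and 36.9 in CAST, 25.3, 24.1 and 27.1 in PWK, and 27.0, 28.3 and 36.4 in WSB. Every TM library was below every control library of its strain. The average log2 change was -0.56 ± 0.050, that is 0.678 of the control level (adjusted p = 1.47e-10). The strains lay close together, between -0.66 ± 0.11 in PWK and -0.46 ± 0.14 in NOD. In the cross controls Keap1 read 35.6, 35.5 and 34.6 in x129, 41.4 and 38.6 in xCAST, 40.7, 38.2 and 37.1 in xNOD, 36.2, 36.2 and 35.2 in xNZO, and 38.0, 36.0 and 28.6 in xWSB. With TM it read 22.3, 24.3 and 27.8 in x129, 25.4, 27.5 and 31.0 in xCAST, 25.8 and 32.2 in xNOD, 23.8, 26.8 and 31.6 in xNZO, and 23.2, 27.9 and 30.2 in xWSB. Over the crosses Keap1 fell by 0.44 ± 0.060 on the log2 scale (adjusted p = 2.94e-06), with no overlap in 4 of 5 crosses. The exception was xWSB, where 1 control library, at 28.6, lay within the range of the TM libraries.

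Sqstm1, the p62 autophagy receptor that binds KEAP1, rose most of the members. In founder controls its level was 778, 540.1 and 549 in A, 688 and 691 in B6, 655 and 644 in 129, 628 and 607 in NOD, 550.1 and 539.9 in NZO, 563 and 498 in CAST, 449, 403 and 388 in PWK, and 657 and 591 in WSB. With TM it was 966, 1096 and 1146 in A, 1034 and 1029.6 in B6, 929, 871 and 795 in 129, 899, 968 and 909.8 in NOD, 746, 745 and 1127 in NZO, 628 and 693 in CAST, 727, 655 and 778 in PWK, and 989, 1042 and 1119 in WSB. The groups did not overlap in any of the 8 strains. On average it rose 1.53 fold, by 0.61 ± 0.052 on the log2 scale (adjusted p = 4.96e-11). In the crosses it was 545, 548 and 569.7 in x129, 466.3 and 412 in xCAST, 571, 603 and 562 in xNOD, 511, 495 and 407 in xNZO, and 997, 861 and 794 in xWSB without TM, and 784, 787 and 795 in x129, 789, 783 and 972 in xCAST, 758 and 919 in xNOD, 624, 697 and 704 in xNZO, and 1283, 1445 and 1557 in xWSB with TM. The groups did not overlap in any of the 5 crosses, and the average rise was 1.56 fold (adjusted p = 1.50e-09). Sqstm1 was the only member to rise without overlap in all genotypes of both sets. In the founders Nfe2l2 and Sqstm1 were above, and Keap1 and Srxn1 below, without overlap in all 8 strains, which 4.12% and 2.99% of all genes were. In the crosses Sqstm1 alone was above in all 5, which 4.53% of all genes were, and no member was below in all 5, against 3.32% of all genes. Sqstm1 overlaps Mrnip in the annotation, and without a stated strand setting their reads cannot be told apart.

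**Figure D2:**
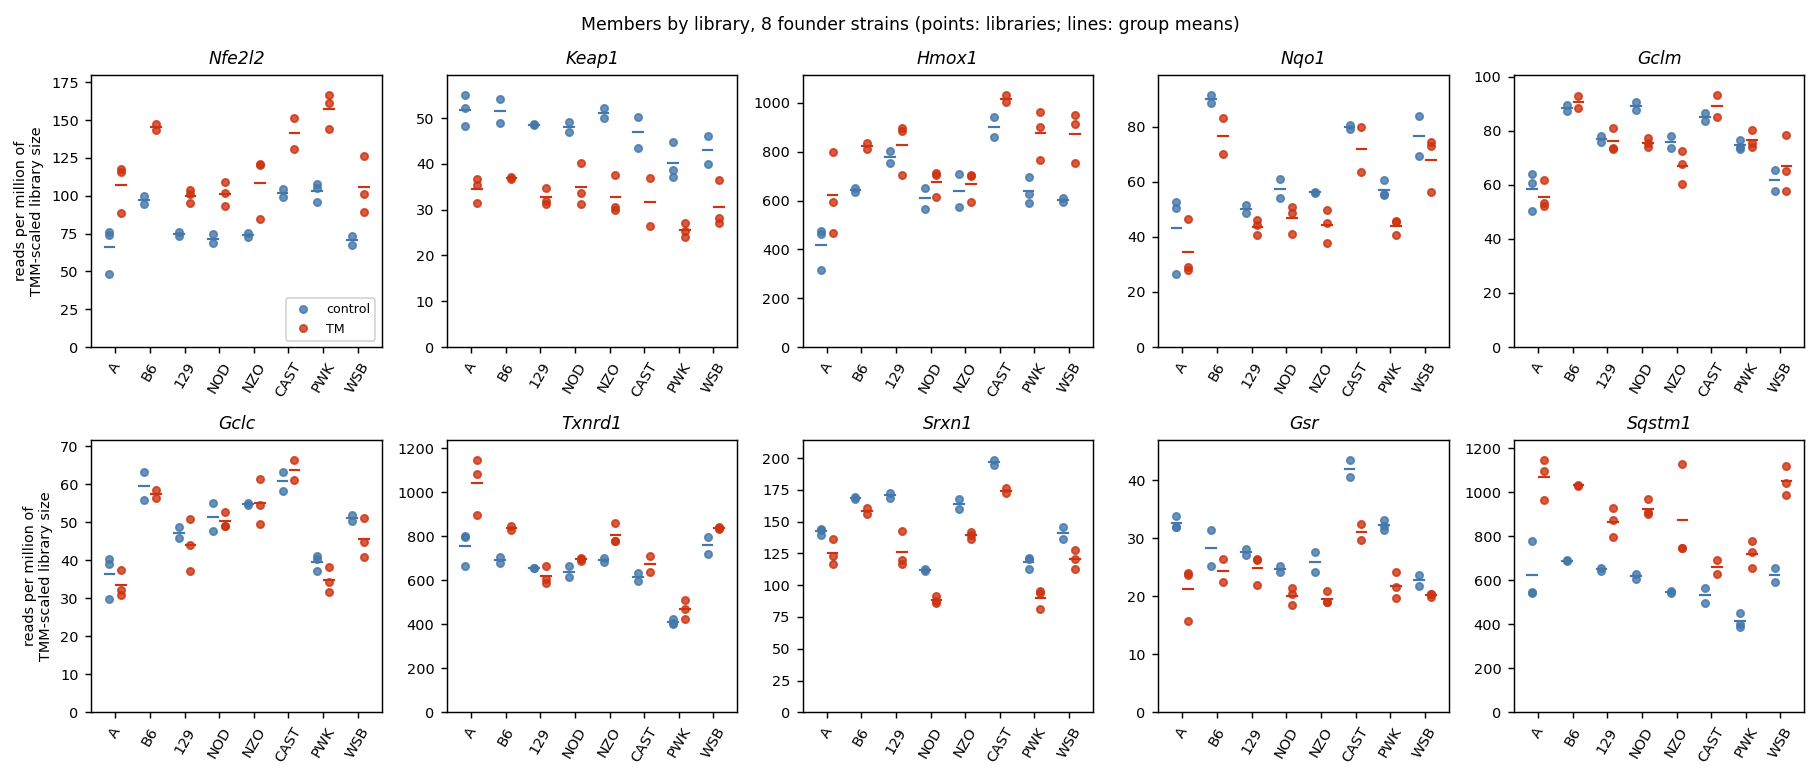
Level of each member in the 40 founder libraries (y axis, RPM, from 0), by strain; blue points are control and red points TM libraries, and short lines are group means. Red lies above blue in every strain for Nfe2l2 and Sqstm1 and below it for Keap1 and Srxn1. The mean of the A controls is lowest for Hmox1, Nqo1, Gclc, Gclm and Nfe2l2.

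Of the genes of glutathione, Gsr, the reductase that regenerates it, fell, and the genes for its synthesis did not pass the test. Gsr in founder controls was 31.9, 33.8 and 31.9 in A, 31.3 and 25.1 in B6, 27.1 and 28.1 in 129, 24.1 and 25.2 in NOD, 24.2 and 27.6 in NZO, 43.5 and 40.5 in CAST, 32.1, 33.2 and 31.4 in PWK, and 21.8 and 23.7 in WSB. With TM it was 15.8, 23.6 and 24.1 in A, 22.4 and 26.4 in B6, 26.4, 26.3 and 21.9 in 129, 21.5, 20.4 and 18.5 in NOD, 19.1, 18.9 and 20.8 in NZO, 32.4 and 29.7 in CAST, 24.2, 21.6 and 19.6 in PWK, and 20.3, 20.4 and 19.8 in WSB. TM libraries lay below the controls in every strain but B6, where the ranges overlapped. The average log2 change was -0.36 ± 0.050 in the founders (adjusted p = 5.69e-07) and -0.30 ± 0.064 in the crosses (adjusted p = 0.000485). Gclc, the catalytic subunit of glutamate-cysteine ligase, changed by -0.073 ± 0.048 in the founders (adjusted p = 0.203) and -0.14 ± 0.070 in the crosses (adjusted p = 0.0919). Without control replicate 1 of xWSB, the latter was -0.19 and passed the test (adjusted p = 0.00791). Gclm, the modifier subunit, changed by -0.030 ± 0.041 (adjusted p = 0.552) and -0.11 ± 0.055 (adjusted p = 0.0911). By strain the changes of Gclm lay between -0.24 ± 0.10 in NOD and 0.11 ± 0.17 in WSB.

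The genes of the thioredoxin and peroxiredoxin system moved in opposite directions in the founders. Srxn1, encoding sulfiredoxin, which repairs overoxidised peroxiredoxins, was lower with TM, from 143, 139.6 and 145 in A, 169 and 168 in B6, 168 and 173 in 129, 111 and 113 in NOD, 160.0 and 168 in NZO, 198 and 195 in CAST, 122, 120.5 and 113 in PWK, and 136 and 145 in WSB in the controls. The TM libraries were at 123, 136 and 117 in A, 161 and 156 in B6, 117, 143 and 119.5 in 129, 91.2, 87.8 and 85.7 in NOD, 137, 141 and 139 in NZO, 176 and 172 in CAST, 95.5, 93.6 and 81.5 in PWK, and 121, 113 and 128 in WSB. The fall was without overlap in all 8 strains but small, -0.26 ± 0.033 on the log2 scale (adjusted p = 1.17e-07). In the crosses it was -0.28 ± 0.044 (adjusted p = 1.33e-05), without overlap in x129, xNOD and xNZO only. The change of Srxn1 was -0.14 ± 0.15 in xCAST and -0.049 ± 0.16 in xWSB. Txnrd1, encoding cytosolic thioredoxin reductase, read 665, 797 and 802 in A, 707 and 680.0 in B6, 654 and 655 in 129, 614 and 664 in NOD, 684 and 699 in NZO, 598 and 633 in CAST, 408, 423 and 402 in PWK, and 719 and 796 in WSB in the controls. With TM it read 1081, 897 and 1146 in A, 848 and 828.9 in B6, 585, 607 and 663 in 129, 694, 703 and 689 in NOD, 778, 777 and 859.7 in NZO, 639 and 712 in CAST, 422, 469 and 512 in PWK, and 831, 836 and 841 in WSB. In 6 strains the TM libraries lay above the controls without overlap, in PWK they overlapped, and in 129 the mean was lower with TM. On average Txnrd1 rose by 0.18 ± 0.038 (adjusted p = 0.000174), and its change over the crosses, 0.10 ± 0.048, did not pass (adjusted p = 0.101). In xCAST Txnrd1 went from 695 and 687 to 890.0, 872 and 889, and in xNOD the values were 536, 547 and 492 without and 412 and 512 with TM.

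Hmox1 and Nqo1, the enzymes most often used to read out NRF2, also parted. Hmox1, encoding the inducible heme oxygenase, was at 317, 475 and 464 in A, 651 and 637 in B6, 805 and 753 in 129, 564 and 653 in NOD, 574 and 707 in NZO, 862 and 943 in CAST, 697, 626 and 589 in PWK, and 595 and 609.7 in WSB in founder controls. With TM it was at 595, 799 and 468 in A, 834 and 812 in B6, 899, 885 and 706 in 129, 705, 712 and 616 in NOD, 700.4, 703 and 595 in NZO, 1002 and 1034 in CAST, 964, 899.6 and 767 in PWK, and 915, 950.0 and 754 in WSB. The groups did not overlap in B6, CAST, PWK and WSB, and overlapped in the other 4. The average rise was 0.30 ± 0.062 (adjusted p = 0.000176). Over the crosses the change of Hmox1 was 0.052 ± 0.076 (adjusted p = 0.588), and the groups overlapped in all 5. Nqo1, encoding a quinone reductase, was at 26.6, 50.6 and 52.7 in A, 88.7 and 91.6 in B6, 51.7 and 48.5 in 129, 60.8 and 54.1 in NOD, 56.4 and 56.0 in NZO, 79.2 and 80.4 in CAST, 55.5, 60.8 and 55.02 in PWK, and 69.2 and 83.8 in WSB in founder controls. With TM it was at 28.1, 46.4 and 29.0 in A, 69.97 and 83.1 in B6, 44.2, 40.6 and 46.1 in 129, 48.7, 51.0 and 41.2 in NOD, 49.6, 45.1 and 37.7 in NZO, 63.6 and 79.9 in CAST, 45.7, 45.5 and 40.8 in PWK, and 74.3, 56.1 and 72.8 in WSB. The mean log2 change was below 0 in every strain and -0.26 ± 0.074 overall (adjusted p = 0.00359), with no overlap in 5 of 8. In the crosses it fell by 0.43 ± 0.079 (adjusted p = 0.000117), with no overlap in 4 of 5. Whether the change of Hmox1 differs between the sets was not tested.

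Within single genotypes a call needed an adjusted p below 0.01 together with a 1.5-fold difference, and few members passed. In the founders, of 80 tests 3 were higher (Nfe2l2 and Sqstm1 in PWK, Sqstm1 in WSB) and 1 lower (Keap1 in PWK), against 2.4% and 1.55% of all genes summed over the strains. Within PWK 6.36% of all genes were called higher and 4.3% lower, and within WSB 2.85% were called higher. Sqstm1 rose 1.74 fold in PWK (adjusted p = 3.44e-05) and 1.68 fold in WSB (adjusted p = 0.00466), Nfe2l2 rose 1.53 fold in PWK (adjusted p = 0.000265) and Keap1 fell to 0.635 of the control level in PWK (adjusted p = 0.000485). In the crosses 1 of 50 tests passed, Sqstm1 in xCAST, which rose 1.92 fold (adjusted p = 0.00377), against 2.54% of all genes higher and 1.47% lower over the 5 crosses and 2.52% higher within xCAST. The call of Sqstm1 in PWK held with each library left out in turn (0.74 to 0.87 on the log2 scale). The other calls sat near their thresholds. Without control replicate 1 of PWK the changes of Keap1 and Nfe2l2 there were -0.58 and 0.56 on the log2 scale, under 1.5 fold. That of Nfe2l2 in PWK was also under 1.5 fold without TM replicate 1 (0.57). The call of Sqstm1 in WSB was lost without control replicate 2 (adjusted p = 0.0320), control replicate 3 (0.0462) or TM replicate 2 (0.0237). That in xCAST was lost without control replicate 2 (adjusted p = 0.0263), control replicate 3 (0.0756), TM replicate 1 (0.0180) or TM replicate 2 (0.0116).

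Of 9 other regulators of NRF2 (Cul3, Rbx1, Bach1, Mafg, Mafk, Maff, Nfe2l1, Btrc and Gsk3b), 3 rose and 1 fell in the founders, where 20.5% of all genes rose and 21.9% fell. In the crosses 2 rose and 0 fell, where 16.9% of all genes rose and 18.7% fell. Those that rose in the founders were Cul3, the ligase scaffold that KEAP1 recruits (0.51 ± 0.076, adjusted p = 1.84e-06), Bach1, the repressor at antioxidant response elements (0.36 ± 0.10, adjusted p = 0.00470), and Mafk, a small MAF partner (0.30 ± 0.054, adjusted p = 2.21e-05). The call of Bach1 was lost without control replicate 2 of 129, control replicate 1 of NOD or control replicate 2 of WSB (adjusted p up to 0.0113). Btrc, a subunit of another ligase for NRF2, fell (-0.19 ± 0.042, adjusted p = 0.000299). In the crosses Mafk (0.42 ± 0.075) and Cul3 (0.33 ± 0.086) rose. The median of the 9 was 0.052 in the founders and 0.10 in the crosses.

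Of 25 further NRF2 targets, 2 rose and 10 fell in the founders, beside 20.5% and 21.9% of all genes. In the crosses 3 rose (Slc7a11, Ugdh and Me1) and 8 fell, beside 16.9% and 18.7% of all genes. Their median log2 change was -0.18 and -0.17, below that of all genes. Slc7a11, the cystine importer that feeds glutathione synthesis and a known ATF4 target as well, rose most, by 1.49 ± 0.15 in the founders (adjusted p = 1.56e-09) and 1.24 ± 0.10 in the crosses (adjusted p = 9.87e-10). Ugdh, which makes UDP-glucuronate, rose by 0.28 ± 0.045 and 0.24 ± 0.047. Me1, a malic enzyme that makes NADPH, rose by 0.12 ± 0.037 in the crosses (adjusted p = 0.00870), a call lost without any 1 of 22 of the 28 libraries and with the replicate block (adjusted p = 0.0119). Ugdh and Me1 were named after their values were seen, because few targets rose. Among those that fell were genes of the pentose phosphate pathway, G6pdx (-0.48 ± 0.052 in the founders and -0.56 ± 0.055 in the crosses) and Tkt (-0.38 ± 0.042 and -0.42 ± 0.054). Blvrb, a biliverdin reductase, fell in the founders (-0.32 ± 0.092, adjusted p = 0.00436), a call lost without TM replicate 2 of CAST or control replicate 2 of WSB (adjusted p up to 0.0132). Cbr3, a carbonyl reductase, fell in the founders (-0.47 ± 0.13, adjusted p = 0.00329). In the crosses Osgin1 fell by 0.44 ± 0.087 (adjusted p = 0.000219), and so did Gstm1, a glutathione transferase, by 0.44 ± 0.10 (adjusted p = 0.000746). In the founders the call of Osgin1 (-0.32 ± 0.10) was lost without any 1 of 19 of the 40 libraries, and in the crosses that of Abcc1, an exporter of glutathione conjugates (-0.47 ± 0.13), without any 1 of 13 of 28.

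**Figure D3:**
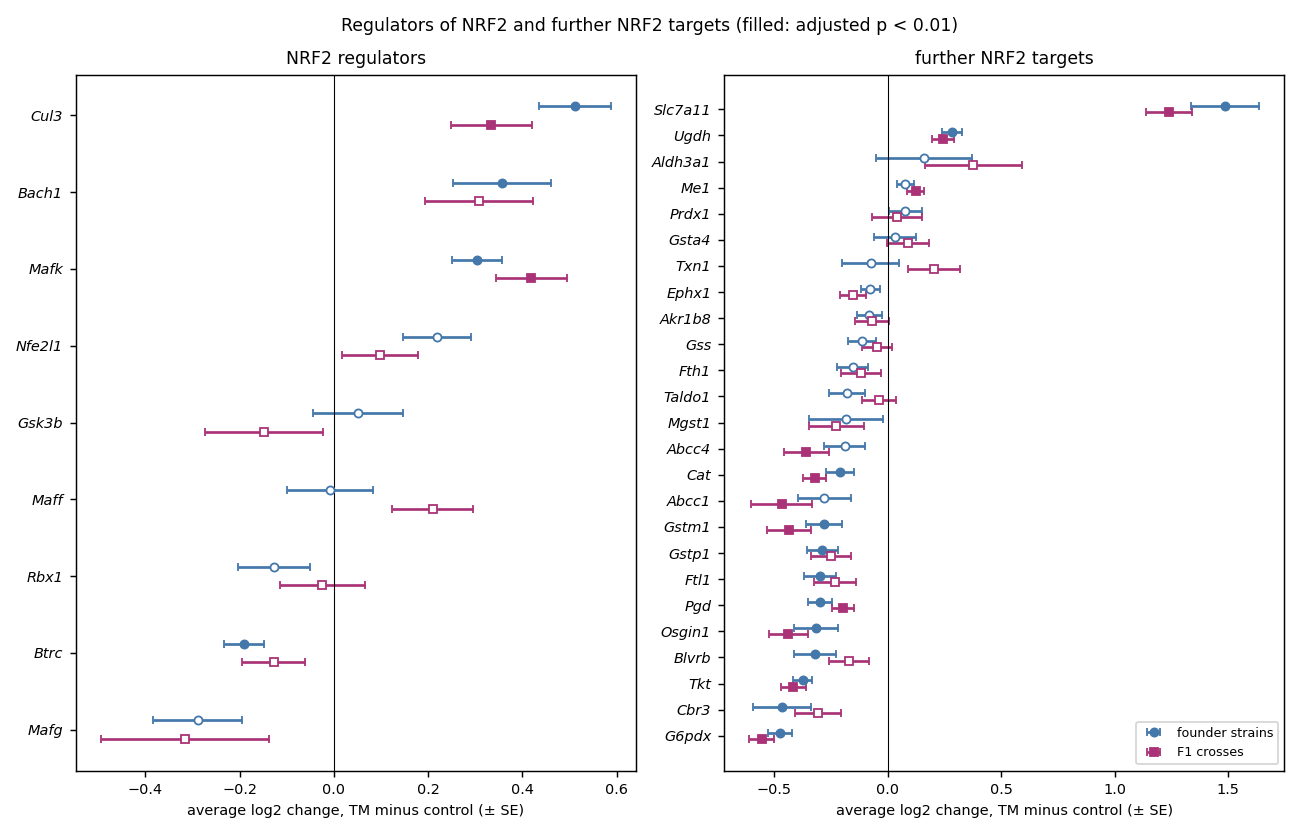
Average log2 change with TM (± SE) of 9 NRF2 regulators (left) and 25 further NRF2 targets (right), with founder strains as circles and F1 crosses as squares, filled where the adjusted p was below 0.01. Slc7a11 lies far to the right of the other targets, and the filled points of most other called targets lie below 0.

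The size of the response was then compared between genotypes with the strain by treatment interaction. By limma 0 of 10 members passed in the founders and 0 of 10 in the crosses, against 0.174% and 0.0547% of all genes. At an unadjusted p below 0.05 there were 0 members in the founders and 2 in the crosses, and edgeR on recovered reads gave 0 calls, with the same counts of 0 and 2. Among the founders the smallest unadjusted p was that of Txnrd1 (0.0528), where single strains lay between -0.084 ± 0.14 in 129 and 0.46 ± 0.21 in A. In the crosses Srxn1 (0.0293) and Txnrd1 (0.0332) were lowest, with adjusted p of 0.782 for both. A test of the kind the study used, over the log2 ratio of each TM library to the median control, also called none of the 10, with 2 and 3 members at an unadjusted p below 0.05, while it called 456 genes in the founders and 68 in the crosses, more than limma (23 and 7). Its smallest adjusted p were 0.067 for Sqstm1 in the founders and 0.0592 for Srxn1 in the crosses. A p that misses the threshold does not show that the strains respond alike: the SE of a single strain's change reached 0.32 on the log2 scale (Nqo1 in A).

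Without TM, 9 of the 10 members differed between the founder strains, where 37.2% of all genes did (moderated F test over the 8 control groups, adjusted p below 0.01). The exception was Keap1, which lay between 40.2 ± 4.00 (SD, n = 3) in PWK and 51.9 ± 3.42 (SD, n = 3) in A (adjusted p = 0.181). Of the 280 comparisons of pairs of strains, 48 passed, against 10.1% of all genes summed over the pairs. Comparisons with 1 strain share its control libraries. In the pairs that passed, PWK was the lower strain in 18 and A in 16, and CAST was the higher strain in 17 and the lower in 0. Over all genes, PWK was the lower strain in 7.8% of its comparisons, A in 5.12% and CAST in 7.83%, and CAST was the higher in 5.84%. Each strain enters 70 comparisons of the members. Of the 70 pairs of neighbours in the order of levels, 1 passed, Txnrd1 between PWK and CAST, so that the orders below are runs of strains that did not differ from the next beyond their spread.

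Hmox1, Nqo1, Gclc, Gclm and Nfe2l2 had their lowest mean in A, and the order for Nfe2l2 is given below. In order of level, Hmox1 was 419 ± 88.4 in A, 602 ± 10.4 in WSB, 609 ± 62.9 in NOD, 637 ± 55.2 in PWK, 640.2 ± 94.4 in NZO, 644 ± 10.3 in B6, 779 ± 36.6 in 129 and 902 ± 57.5 in CAST (SD, n = 2 or 3). A was below CAST by 1.13 (adjusted p = 1.05e-05), below 129 by 0.92 (adjusted p = 0.000320) and below PWK by 0.63 on the log2 scale. Nqo1 was 43.3 ± 14.5 in A, 50.1 ± 2.25 in 129, 56.2 ± 0.267 in NZO, 57.1 ± 3.18 in PWK, 57.5 ± 4.74 in NOD, 76.5 ± 10.3 in WSB, 79.8 ± 0.854 in CAST and 90.1 ± 2.01 in B6. B6 was 2.18 fold above A (adjusted p = 0.000305), and CAST and WSB also passed against A. The spread within A was wide, since control replicate 1 read 26.6 for Nqo1, 317 for Hmox1 and 48.1 for Nfe2l2, below the other A controls (50.6 and 52.7, 475 and 464, 74.2 and 75.7). For Nqo1 the other 2 A controls were above the mean of 129, so its lowest mean in A rested on replicate 1. The same held for Nfe2l2, whose other 2 A controls were above the mean of WSB, 70.4. For Hmox1 all 3 A controls were below every other founder control, of which the lowest was 564 (NOD). Gclc was 36.5 ± 5.81 in A, 39.5 ± 2.07 in PWK, 47.3 ± 1.94 in 129, 51.2 ± 1.27 in WSB, 51.5 ± 5.36 in NOD, 54.9 ± 0.330 in NZO, 59.7 ± 5.16 in B6 and 60.8 ± 3.46 in CAST, with A below B6, NZO and CAST, and PWK below B6 and CAST. Gclm was 58.4 ± 7.25 in A, 61.6 ± 5.38 in WSB, 74.7 ± 1.63 in PWK, 75.7 ± 3.11 in NZO, 77.1 ± 1.51 in 129, 85.1 ± 1.98 in CAST, 88.3 ± 1.59 in B6 and 89.1 ± 2.07 in NOD, with A below B6, NOD, CAST and PWK and WSB below B6, NOD and CAST. The highest A control was 40.5 for Gclc, above the mean of PWK, and 64.2 for Gclm, above the mean of WSB. The A controls also had the highest myeloid marker sums, at 62.1 to 71.2 against 17.8 to 18.7 in PWK and 8.53 to 38.6 in WSB, and the part of this in the order of strains was not tested. Without A, 9 of 10 members still differed between the strains, and without control replicate 1 of A, 46 pairs passed.

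Txnrd1, Sqstm1 and Keap1 had their lowest mean in PWK. Txnrd1 was 411 ± 10.7 in PWK, 616 ± 24.7 in CAST, 639 ± 35.1 in NOD, 655 ± 1.01 in 129, 691 ± 10.5 in NZO, 693 ± 18.9 in B6, 755 ± 77.8 in A and 758 ± 54.5 in WSB, and PWK was below each of the other 7 strains (adjusted p between 2.12e-08 and 0.000114). Its 3 control libraries, at 408, 423 and 402, lay below all other founder controls, of which the lowest was 598. Sqstm1 was 413 ± 31.9 in PWK, 531 ± 46.1 in CAST, 545 ± 7.21 in NZO, 618 ± 14.96 in NOD, 622 ± 135 in A, 624 ± 46.6 in WSB, 649.7 ± 7.95 in 129 and 689 ± 1.85 in B6, with PWK below A, B6, 129, NOD and WSB. The difference of Sqstm1 over all strains was lost without control replicate 2 (adjusted p = 0.0136) or replicate 3 (adjusted p = 0.0179) of PWK. Srxn1 was 112 ± 1.18 in NOD, 118 ± 4.96 in PWK, 141 ± 6.41 in WSB, 143 ± 2.60 in A, 164 ± 5.39 in NZO, 169 ± 1.37 in B6, 171 ± 3.26 in 129 and 197 ± 2.70 in CAST, with 10 of 28 pairs past the test, the most of any member, among them NOD and PWK each below B6, 129, NZO and CAST. Gsr was 22.8 ± 1.30 in WSB, 24.7 ± 0.766 in NOD, 25.9 ± 2.42 in NZO, 27.6 ± 0.701 in 129, 28.2 ± 4.396 in B6, 32.2 ± 0.909 in PWK, 32.5 ± 1.11 in A and 42.0 ± 2.07 in CAST, and CAST was above B6, 129, NOD, NZO and WSB. Nfe2l2 itself was 66.0 ± 15.5 in A, 70.4 ± 3.77 in WSB, 71.5 ± 4.28 in NOD, 74.1 ± 1.66 in NZO, 74.6 ± 2.18 in 129, 97.0 ± 3.93 in B6, 102 ± 3.54 in CAST and 103 ± 6.33 in PWK, with CAST and PWK above A. PWK had the highest mean of Nfe2l2 and the lowest of Txnrd1 and Sqstm1.

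**Figure D4:**
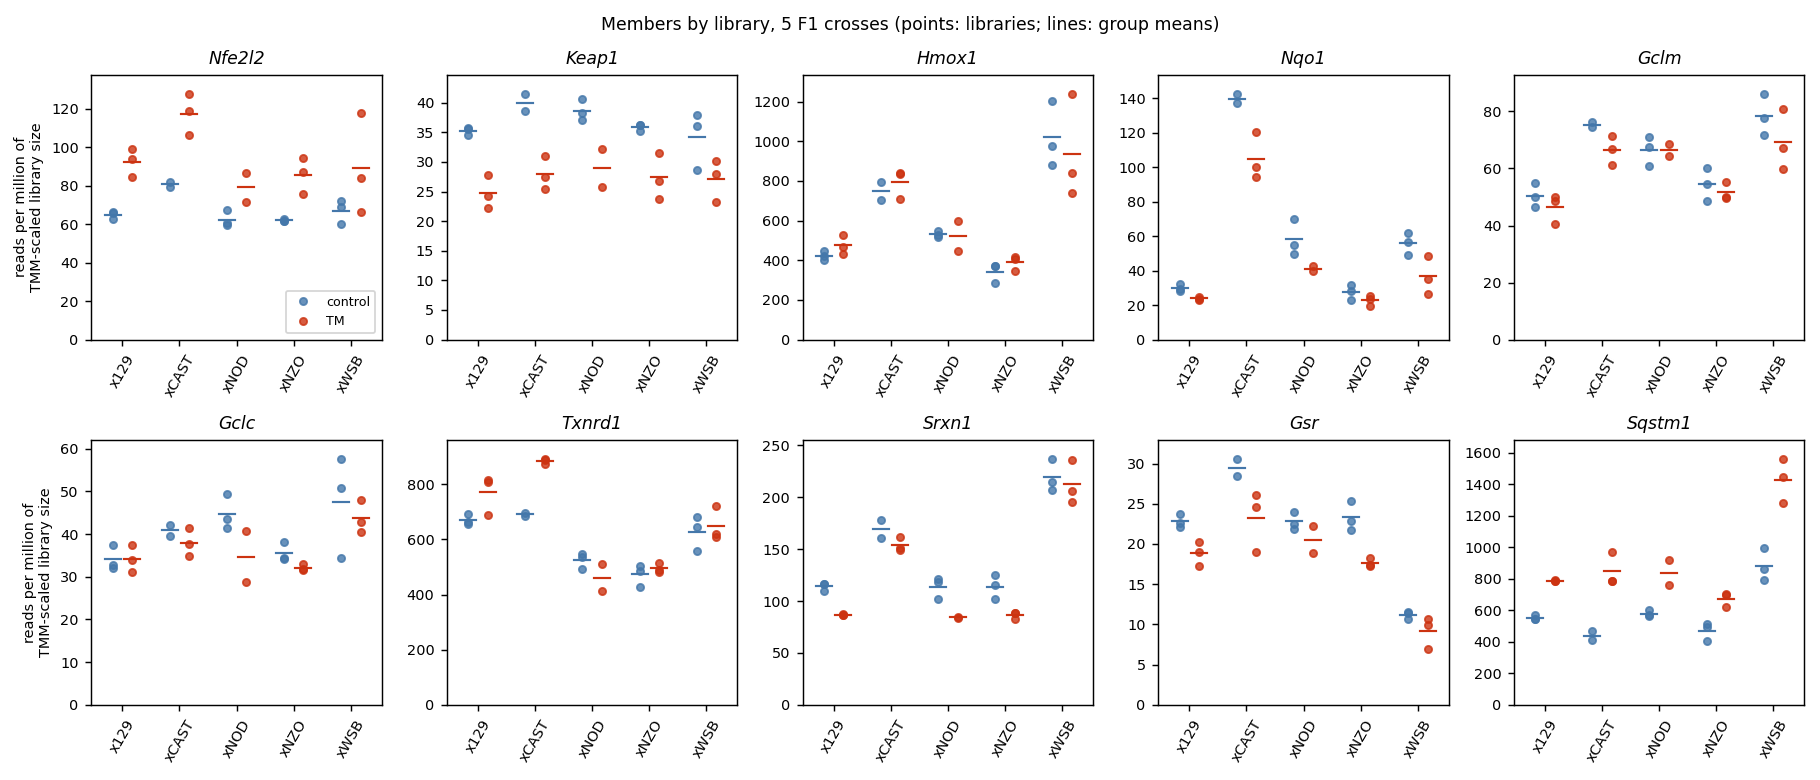
Level of each member in the 28 F1 libraries (y axis, RPM, from 0), by cross, with controls in blue, TM in red and group means as short lines. Nqo1 is highest in xCAST, and in xWSB Gsr is lowest while Hmox1, Srxn1 and Sqstm1 are highest.

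In the crosses, 7 of 10 members differed between the control groups, where 24.8% of all genes did. Nfe2l2 (adjusted p = 0.315), Keap1 (0.617) and Gclc (0.0630) did not pass, and Gclc passed without control replicate 1 of xWSB (adjusted p = 0.00148). Each cross was set against the mean of the other 4, so these comparisons share control libraries. Of 50 such contrasts 18 passed, 7 higher and 11 lower, against 9.94% of all genes (4.87% higher and 5.07% lower). Of the 18, 5 lay in xWSB, 4 each in xCAST, x129 and xNZO, and 1 in xNOD. Of all genes, 8.54% were called higher and 11.9% lower in xWSB, and 7.44% higher and 6.02% lower in xCAST. The shares called in either direction were smaller in x129 (5.49%), xNZO (6.41%) and xNOD (3.9%).

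Nqo1 differed most. Its controls read 29.3, 28.4 and 32.1 in x129, 142 and 137 in xCAST, 69.9, 54.8 and 49.5 in xNOD, 31.5, 28.2 and 22.8 in xNZO, and 62.0, 49.0 and 56.6 in xWSB, so that both xCAST libraries were above all others and all x129 and xNZO libraries below. The xCAST level was 3.47 fold that of the other crosses, 1.80 ± 0.16 on the log2 scale (adjusted p = 7.96e-09), and xNZO and x129 were -1.15 ± 0.14 and -0.98 ± 0.14. Among the founders the same contrast of the fathers gave 0.43 ± 0.18 for CAST (adjusted p = 0.0821), -0.20 ± 0.18 for NZO and -0.41 ± 0.18 for 129, and none of them passed. With TM, xCAST read 94.3, 120.3 and 100.4, below its own controls and above every other cross.

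Gsr was lowest in xWSB. Its controls read 22.1, 22.7 and 23.7 in x129, 28.5 and 30.5 in xCAST, 22.5, 24.0 and 21.9 in xNOD, 22.9, 25.4 and 21.7 in xNZO, and 11.4, 10.7 and 11.5 in xWSB, and the 3 xWSB controls were all under the lowest of the others, 21.7. The xWSB level was 0.461 of that of the other crosses, -1.12 ± 0.11 on the log2 scale (adjusted p = 1.83e-08). The WSB founder was -0.37 ± 0.12 against the other fathers and did not pass (adjusted p = 0.0402). Gsr was higher in xCAST (0.62 ± 0.13, adjusted p = 0.000908), and CAST was also higher among the fathers (0.74 ± 0.12, adjusted p = 2.76e-05). The call in xCAST was lost without either control library of that cross (adjusted p = 0.0154 and 0.0448). With TM, Gsr in xWSB was 10.7, 9.96 and 6.90, still under every other cross. Without xWSB, Gsr no longer differed between the crosses by the test (adjusted p = 0.0921).

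Other members were higher in xWSB. Hmox1 controls read 399.9, 445 and 421 in x129, 794 and 704 in xCAST, 528, 547 and 517 in xNOD, 371, 372 and 287 in xNZO, and 1204, 978 and 878 in xWSB, with all 3 xWSB libraries above every other control. The difference from the other crosses was 1.05 ± 0.13 for xWSB (adjusted p = 7.26e-07), and -0.91 ± 0.13 for xNZO. That of x129, -0.53 ± 0.13, passed narrowly (adjusted p = 0.00867) and did not with edgeR on recovered reads (adjusted p = 0.0110), with median-of-ratios scaling (0.0108) or without any 1 of 18 of the 28 libraries. The WSB founder was -0.26 ± 0.15 for Hmox1 (adjusted p = 0.290). Srxn1 controls read 117, 117 and 109.7 in x129, 178 and 161 in xCAST, 119, 121 and 102 in xNOD, 125, 115 and 102 in xNZO, and 236, 207 and 215 in xWSB, again highest in xWSB. Its xWSB level was 1.74 fold that of the other crosses (adjusted p = 8.01e-09), and the WSB founder was at 0.895 of the other fathers (adjusted p = 0.208). Srxn1 was also higher in xCAST (0.34 ± 0.087), as among the fathers (0.44 ± 0.081), and lower in xNOD (-0.38 ± 0.074), as among the fathers (-0.58 ± 0.081). The former was lost without either control library of xCAST (adjusted p = 0.206 and 0.0278) or control replicate 3 of x129 (0.0104), and the latter without control replicate 3 of xNOD (0.0426). Sqstm1 was 0.80 ± 0.092 in xWSB (adjusted p = 2.67e-07) and -0.46 ± 0.11 in xCAST (lost without either xCAST control, adjusted p = 0.0163 and 0.135), against 0.10 ± 0.13 and -0.20 ± 0.13 for the fathers. Gclm was 0.36 ± 0.093 in xWSB (adjusted p = 0.00430) and -0.41 ± 0.10 in WSB among the fathers (adjusted p = 0.00440), opposite in sign. Both calls of Gclm rested on few libraries: that of xWSB was lost without control replicate 2 or 3 of xWSB (adjusted p = 0.0185 and 0.0459), and that of WSB without control replicate 2 or 3 of WSB (adjusted p = 0.160 and 0.0130). The remaining calls were of lower levels, Gclm (-0.43 ± 0.093) and Srxn1 (-0.37 ± 0.074) in x129 and Srxn1 (-0.38 ± 0.074) and Txnrd1 (-0.40 ± 0.082) in xNZO. Each of these was lost without control replicate 3 of its cross (adjusted p = 0.0245, 0.0208, 0.0264 and 0.0323), and that of Gclm also without replicate 1 (0.0523). Without xWSB, the test of Sqstm1 over the crosses did not pass (adjusted p = 0.0292), and 5 of 10 members differed.

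Among the fathers, 4 of 50 contrasts passed (Srxn1 and Gsr higher in CAST, Srxn1 lower in NOD, Gclm lower in WSB), against 8.6% of all genes. That share is near the background, and within CAST 17.7% of all genes were called. Whether a cross and its father differ was not tested, because the sets were normalized apart. Fibroblast markers also differed between the crosses: Dcn was 3.43 ± 0.20 on the log2 scale in xWSB and Thy1 -2.91 ± 0.13 in xCAST, and their part in the differences of the members was not tested. The xWSB controls also had the highest summed level of the 6 ER stress genes, at 1283 to 1397, against 1140 or less in the other crosses. The part of this sum was not tested either.

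**Figure D5:**
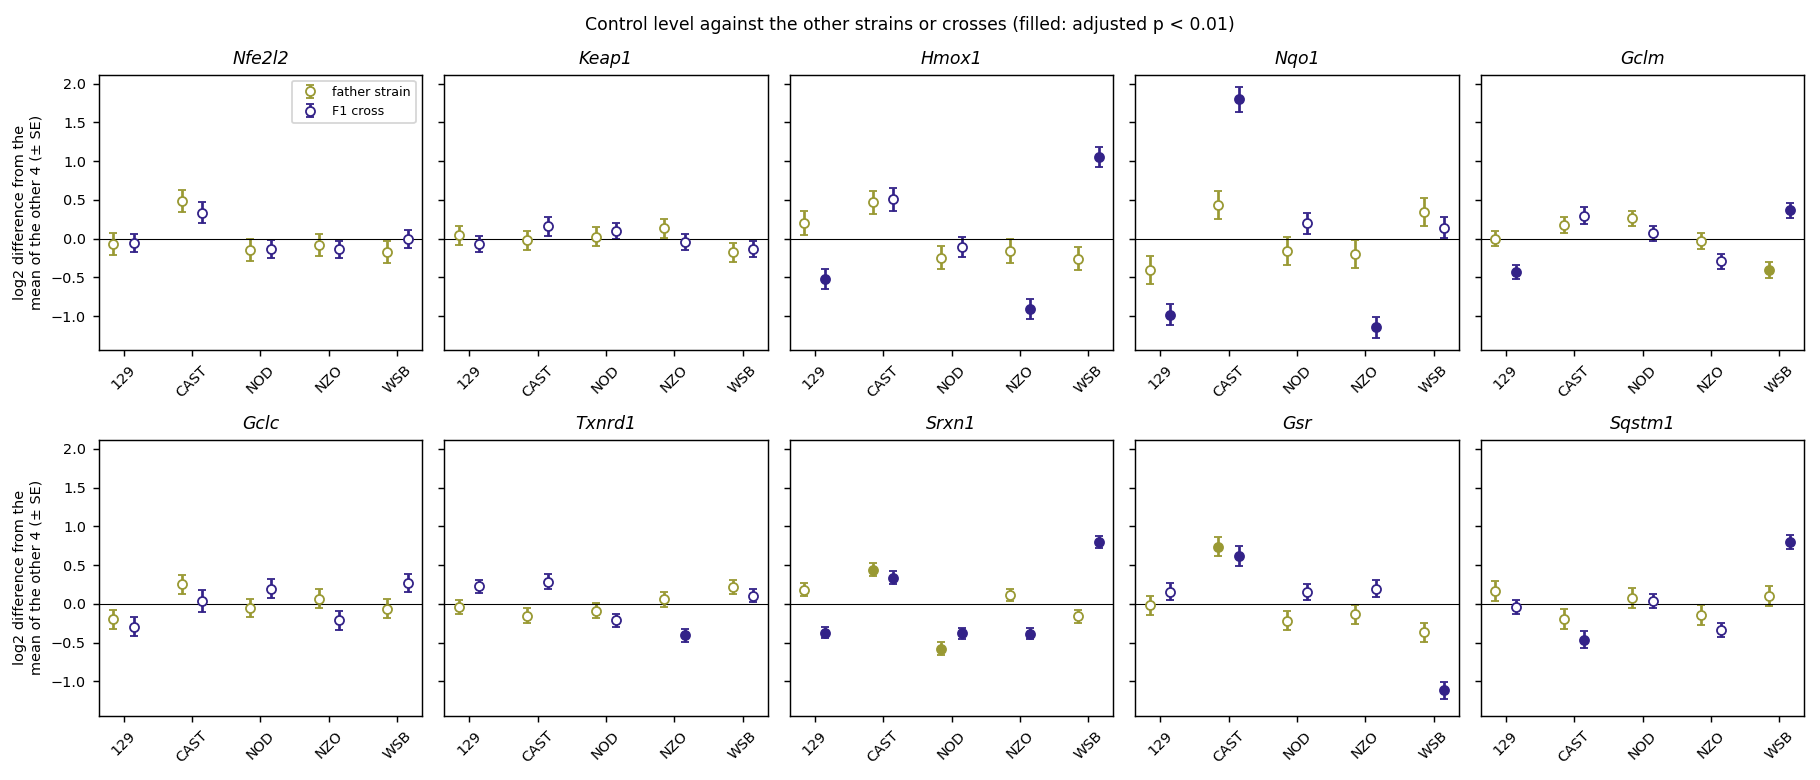
Log2 difference (± SE) of the control level of a father strain (olive) or its cross with B6 (dark blue) from the mean of the other 4 in its set, with filled points where the adjusted p was below 0.01. The crosses lie further from 0 than the fathers for Nqo1 in xCAST, Gsr in xWSB and Hmox1 in xWSB. The signs for Gclm in WSB are opposite. Sizes are not directly comparable, since each cross also carries a B6 genome.

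The genes whose levels ran most alike over the 40 founder libraries were taken for the 3 members with the widest range of basal strain means, among 10015 genes with a mean level of at least 5. Libraries share strain and treatment, so the correlations of log2 levels (Pearson's r) are descriptions. For Hmox1 they were Ptcd3 (0.824), Lztfl1 (0.796) and Rab32 (0.788). For Nqo1 they were G6pc3 (0.755), Mfsd1 (0.740) and Idua (0.738), and for Gsr they were Btbd6 (0.835), Tuba4a (0.830) and Dusp3 (0.798). The members were not each other's nearest genes as a rule: the 100 genes most like Nqo1 held Gclm and Gclc, those most like Hmox1 held Nfe2l2, and those of the other 8 members held none of the 10.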

How the data were processed

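RNA was read by single-end sequencing (TruSeq libraries) in 68 libraries of MEFs. Per the methods, the authors used TopHat 1.4.1 to align the reads of a strain to a genome carrying its own variants (GRCm38, mm10), left out libraries that stood apart in a principal component analysis and scaled the rest by TMM in edgeR; the program that counted reads is not given in the sources used here. The deposited values, labelled FPKM, are a signal of reads per gene per 1000000 of TMM-scaled library size: in all 68 libraries 100% of values were whole multiples of 1 step (tolerance 0.02), and whole reads were recovered for 66. In the F1 tables, lines naming no gene held 15.5 to 24.1% of the signal and were left out.

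Groups came from the sample titles. Genes at 0.5 or more in at least 2 libraries were tested with limma 3.58.1 (R 4.3.3) on log2(value + 0.1) with a trended prior, two-sided, with Benjamini-Hochberg adjustment over all genes. Average, basal and interaction tests used 1 fit per set; tests within a genotype used its libraries only. On recovered reads edgeR 4.0.16 (quasi-likelihood) called 5231 genes for the average effect over the founders and 4651 over the crosses, where limma called 5588 and 4553. Scripts were checked on simulated data. All 10 members are described, and of the other lists up to 6 genes per comparison with the largest change past the test. The members, lists and tests were chosen with earlier results of these data known. Replicate numbers did not pair the libraries of either set as a whole: over 29 same-numbered pairs of a control and a TM library, deviations from group means correlated between -0.67 and 0.56, and 11 pairs were over 0.1. In xWSB all 3 pairs were over 0.1 (0.35, 0.36 and 0.19), as were both pairs of 129 and of NZO.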

Additional observations from a re-analysis of the deposited data

How the results depend on the processing

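No result changed direction under any alternative, and 0 members passed the interaction test under each alternative of limma and edgeR and without any 1 library. With 1 fit over the set the members called within a genotype were 6 higher and 4 lower in the founders and 2 higher in the crosses, and with no minimum fold they were 8 higher and 5 lower in the founders and 3 higher and 2 lower in the crosses, against 3, 1, 1 and 0 as reported. Without a trended prior 0 were higher in the crosses. With a minimum of 1.5 fold on the average effect, 1 member was higher (Sqstm1) and 0 lower in each set. Leaving out 1 library at a time gave 0 (without PWK control replicate 1) to 2 members lower within founder strains, 0 (without any 1 of 4 xCAST libraries) to 2 higher and 0 to 1 lower within crosses, and, for a father strain against the other fathers, 2 to 4 higher and 1 (without WSB control replicate 2 or 3) to 2 lower. Counts of the average effect, the basal F tests, the pairs of strains (37 to 59) and the crosses against each other (5 to 9 higher, 8 to 12 lower) stayed within 1.5 times. The replicate block gave 2 members higher and 1 lower within founder strains and 1 higher within crosses; it was not possible within B6 and CAST, and no member was called within xWSB, the cross whose numbers paired. With the block the average counts were 4 and 4 in the founders and 2 and 4 in the crosses, 9 and 7 members differed at the basal level, 49 pairs passed, and 3 higher and 2 lower fathers and 8 higher and 11 lower crosses were called. The call of Sqstm1 in WSB was lost with the block, with edgeR and without a trended prior, and that of Sqstm1 in xCAST without a trended prior. The alternatives without all of A and without all of xWSB were chosen after seeing the data. Without A, 35 of 36 average and basal results followed in the founders were the same, and 1 lost its call. Without xWSB, 31 of 33 in the crosses were the same and 2 lost their calls, the basal tests of Gsr and Sqstm1 given above. The depth limits Gsr most, at 92 reads in its lowest library. The edgeR fits left out 2 TM libraries, 1 of PWK and 1 of WSB, whose reads were not recovered.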

Other observations

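In the founder controls 12 of 25 further NRF2 targets passed the F test over strains, beside 37.2% of all genes. Some of them had wide ranges. Gsta4, a glutathione transferase that clears lipid aldehydes, had a mean of 2.07 RPM in CAST and 26.2 in NOD, 12.7 fold apart. Slc7a11, the cystine importer, had a mean of 6.95 in NZO and 61.4 in 129. Akr1b8, an aldo-keto reductase, ranged from 40.4 in A to 153 in CAST, and Gstp1 from 42.9 in WSB to 161 in PWK. Aldh3a1, an aldehyde dehydrogenase, was listed at 0 in the WSB controls and had a mean of 7.42 in PWK. Of the 9 regulators 2 passed, a smaller share than of all genes: the small MAF genes Maff and Mafk, both with the lowest mean in PWK and the highest in A.

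In the cross controls 15 of the 25 further targets and 3 of the 9 regulators passed, beside 24.8% of all genes. Gsta4 ranged from 4.97 in xCAST to 23.3 in xWSB, Gstm1 from 15.5 in x129 to 65.7 in xNZO and Mgst1, a microsomal glutathione transferase, from 4.64 in x129 to 18.6 in xWSB. Aldh3a1 was low in every cross, with means from 0.0316 in x129 to 2.21 in xCAST. Maff ranged from 67.8 in x129 to 184 in xWSB, and Nfe2l1, a relative of NRF2, from 195 in xNZO to 336 in xWSB. Fibroblast markers also moved between the crosses, and their part in these levels was not tested.

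Around Gsr, the 15 tested genes within 2 Mb had a median log2 difference of 0.16 in xWSB against the other crosses, of which 4 passed, where Gsr itself was at -1.12 and the 620 tested genes of chromosome 8 had a median of 0.0071. Around Nqo1, the 46 tested genes within 2 Mb had a median of 0.015 in xCAST, of which 4 passed, where Nqo1 itself was at 1.80. In xWSB the genes within 2 Mb that passed were 17 of 48 around Srxn1, 11 of 40 around Sqstm1 and 1 of 3 around Hmox1. Of all genes, 20.4% passed in xWSB and 13.5% in xCAST.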
